A study of Mus musculus with 6 samples.

Results

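Eps8l1, 3300002P13Rik, Nat8f5, Atp4a and Wdfy1 are 5 mouse genes whose counts separated the brains of E4 mice from those of E3 mice. They were picked from these same sections because their E4 and E3 levels lay far apart or differed the same way throughout, so their E4 against E3 values are given below as a description and were not tested. They are 5 of the 32288 genes kept, and all 5 were among the 17835 mouse genes with at least 20 unique molecular identifiers (UMIs, 1 for each captured RNA molecule) in the 6 sections together. The sections were right hemibrains cut coronally and placed on Visium slides, whose barcoded spots bind polyadenylated RNA and each cover several cells. E4 and E3 mice are targeted replacement lines on a B6.129P2 background, homozygous for human APOE4 or APOE3 in place of the coding part of mouse Apoe and under the mouse promoter. All were female, and there was 1 section each for E4 5xFAD and E3 5xFAD mice at 12 months, E4 aged and E3 aged mice at 24 months, and E4 young and E3 young mice at 3 months. The 5xFAD mice also carried transgenes, mutant human APP among them, from a cross to a B6SJL strain, driven by the neuronal Thy1 promoter, so in those sections the transgenes, the cross and the age cannot be told apart. Each allele is carried by a line of its own, so that allele and line cannot be told apart either.

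APOE is the main lipid carrier protein of the brain, made mostly by astrocytes, and its E4 allele is the strongest common genetic risk factor for late-onset Alzheimer's disease. A replaced gene is brought onto a standard strain by repeated backcrossing, and lines kept apart after that breed as separate stocks. The 5 genes do not form a pathway. Eps8l1 encodes an adaptor of the EPS8 family, which links growth factor receptors to actin, and Atp4a encodes the catalytic subunit of the proton pump that acidifies the stomach. Nat8f5 belongs to the NAT8 family of N-acetyltransferases, Wdfy1 encodes a protein of endosomes that acts as an adaptor for the Toll-like receptors TLR3 and TLR4, and 3300002P13Rik is annotated as a long intergenic noncoding RNA with no function known here.

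Positions are for mm10, from the GENCODE M21 annotation. Eps8l1 lies on the forward strand of chr7:4460674-4480487 and 3300002P13Rik on the reverse strand of chr7:3421665-3423445. Atp4a lies on the forward strand of chr7:30712209-30725534. All 3 share their chromosome with Apoe, which is at chr7:19696109-19699188. Nat8f5 lies on the reverse strand of chr6:85817218-85820972 and Wdfy1 on the reverse strand of chr1:79702262-79776143. RefSeq promoter windows on GRCm38.p6, the assembly behind mm10, run from 250 bases before to 50 bases after the annotated start. They were found for 4 of the 5 genes, with no entry for Wdfy1. The windows of Eps8l1, 3300002P13Rik and Nat8f5, whose E4 and E3 levels were over 5-fold apart in the young pair, are printed 5′ to 3′ on the gene's strand because they show how unlike these promoters are, with matches on either strand in capitals, to the TATA box motif TATAAA, to the CCAAT box motif, or to the GC box motif GGGCGG. Eps8l1 has 3 windows, and the one printed is chr7:4460447-4460746. The 3300002P13Rik window is chr7:3423396-3423695 and the Nat8f5 window is chr6:85820923-85821222.
Eps8l1: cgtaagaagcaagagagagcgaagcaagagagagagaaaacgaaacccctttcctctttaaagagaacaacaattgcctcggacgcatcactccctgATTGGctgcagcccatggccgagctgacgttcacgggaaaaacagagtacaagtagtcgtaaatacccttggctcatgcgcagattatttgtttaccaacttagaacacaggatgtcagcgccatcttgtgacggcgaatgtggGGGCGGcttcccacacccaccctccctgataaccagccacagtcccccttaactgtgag
3300002P13Rik: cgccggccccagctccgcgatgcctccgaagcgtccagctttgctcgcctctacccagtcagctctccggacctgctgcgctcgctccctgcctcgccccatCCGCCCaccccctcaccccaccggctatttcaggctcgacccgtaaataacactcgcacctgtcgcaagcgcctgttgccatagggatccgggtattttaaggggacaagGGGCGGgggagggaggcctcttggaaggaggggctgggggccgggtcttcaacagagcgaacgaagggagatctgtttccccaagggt
Nat8f5: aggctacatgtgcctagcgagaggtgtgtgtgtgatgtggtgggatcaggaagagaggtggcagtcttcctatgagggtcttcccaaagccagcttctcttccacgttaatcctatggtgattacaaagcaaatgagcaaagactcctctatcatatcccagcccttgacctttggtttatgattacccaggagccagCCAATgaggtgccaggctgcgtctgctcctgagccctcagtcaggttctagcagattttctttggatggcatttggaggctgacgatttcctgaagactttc
The Nat8f5 window held 4 CpG dinucleotides and 50% G+C, with 1 CCAAT match and none to the GC or TATA box motif. The 3300002P13Rik window held 23 CpG and 65% G+C, with GGGCGG on both strands. The Eps8l1 window printed held 14 CpG, with CCAAT and the GC box motif. Those of Eps8l1 not printed held 7 and 3 CpG, with the GC box motif and no CCAAT match. Which start is used in these sections was not measured. Over the 32851 mouse windows the medians were 7 CpG and 52.7% G+C, and the CCAAT motif was present in 37.4%, the GC box motif in 35.7% and the TATA box motif in 13.6%. The Atp4a window (chr7:30711959-30712258) had 2 CpG and none of the 3 motifs, so no motif of these was common to all 4 genes. A match is only a run of letters and not a shown binding site.

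The spots used numbered 1688 to 2773 per section, 14524 in all, and held 20343701 to 37266232 UMIs per section, with medians of 10081.5 to 15360 UMIs per spot. Levels are given as CPM, the UMIs of a gene per 1000000 UMIs of the same section or area, with exact 95% Poisson intervals that cover counting error only and not differences between mice. Human APOE was counted in every section, at 762 to 1073 CPM in E4 and 736 to 986 CPM in E3 sections, and mouse Apoe at 86.7 to 93.2 CPM in E4 and 75.7 to 84.7 CPM in E3. Human APP stood at 91.2 CPM in E4 5xFAD and 63.1 CPM in E3 5xFAD, and at 0 to 0.320 CPM in the other 4 sections. The human rows EPS8L1, ATP4A, WDFY1 and NAT8 of the combined reference had 0 UMIs in every section, so no count of these genes had been placed on its human counterpart. As spots hold several cells, fewer cells of a type and less RNA per cell cannot be told apart.

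Eps8l1 was much higher in E4 in every condition, and of the 5 genes it had the largest value for the smallest of the 3 absolute log2 ratios. Its UMIs numbered 144 in E4 5xFAD, against 12 in E3 5xFAD, 129 in E4 aged, against 13 in E3 aged, and 354 in E4 young, against 16 in E3 young. As levels these were 4.49 (95% interval 3.79 to 5.28), 6.34 (5.29 to 7.53) and 9.80 CPM (8.81 to 10.9) in the E4 5xFAD, E4 aged and E4 young sections. The E3 sections stood at 0.405, 0.416 and 0.429 CPM in the same order of conditions, and their intervals overlapped almost fully. All 3 E4 sections were therefore far above all 3 E3 sections, and E4 varied 2.18-fold among its sections while E3 varied 1.06-fold. E4 over E3 was 11.1-fold in 5xFAD (log2 ratio 3.47, exact conditional binomial interval 2.62 to 4.46), 15.2-fold in aged (3.93, 3.11 to 4.88) and 22.8-fold in young mice (4.51, 3.79 to 5.34). A UMI of Eps8l1 was found in 4.96% of spots in E4 5xFAD, 6.87% in E4 aged and 12.9% in E4 young, against 0.397%, 0.507% and 0.599% of spots in E3 5xFAD, E3 aged and E3 young.

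Nat8f5 showed the opposite direction and was near the floor in E4. Each of the 3 E4 sections held 8 UMIs, against 68 in E3 5xFAD, 56 in E3 aged and 85 in E3 young. The E4 levels were 0.249, 0.393 and 0.221 CPM in 5xFAD, aged and young, and the highest upper bound among them was 0.775 CPM. In E3 the levels were 2.30, 1.79 and 2.28 CPM in the same order, with a lowest bound of 1.35 CPM, so the groups did not overlap. The log2 ratios of E4 over E3 were -3.20 (-4.47 to -2.14) in 5xFAD, -2.19 (-3.47 to -1.11) in aged and -3.36 (-4.62 to -2.32) in young mice. Nat8f6, a gene of the same family, overlaps Nat8f5 on the same strand and had 20 UMIs in all, so the split of reads between these 2 genes is uncertain. The last 300 bases of the Nat8f5 transcript matched those of its closest relative measured, Nat8, at 194 bases.

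3300002P13Rik was also lower in E4, by an amount that differed among conditions. It had 43 UMIs in E4 5xFAD, against 104 in E3 5xFAD, and 32 in E4 young, against 178 in E3 young. In the aged pair it had 4 UMIs in E4, against 210 in E3. The levels were 1.34 CPM (0.970 to 1.81) in E4 5xFAD, 0.197 CPM (0.0536 to 0.503) in E4 aged and 0.886 CPM (0.606 to 1.25) in E4 young, against 3.51 (2.87 to 4.25), 6.72 (5.84 to 7.69) and 4.78 CPM (4.10 to 5.53) in E3 5xFAD, E3 aged and E3 young. Every E4 section was below every E3 section, but the E4 sections varied 6.82-fold among themselves, the widest spread of the 5 genes in either genotype. Their log2 ratios to E3 were -1.39 (-1.94 to -0.86) in 5xFAD, -5.09 (-6.98 to -3.72) in aged and -2.43 (-3.02 to -1.88) in young mice. The interval of the aged pair lay wholly below those of the other pairs, and those of the 5xFAD and young pairs overlapped only at their ends.

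Atp4a, the stomach proton pump subunit, was rare in all sections. It had 48 UMIs in E4 5xFAD, 29 in E4 aged and 41 in E4 young, against 10, 15 and 11 in E3 5xFAD, E3 aged and E3 young. The E4 levels of 1.496, 1.43 and 1.14 CPM overlapped in their intervals, as did the E3 levels of 0.338, 0.480 and 0.295 CPM, and no E4 interval overlapped an E3 interval. E4 over E3 was 4.43-fold (log2 2.15, 1.15 to 3.30) in 5xFAD, 2.97-fold (1.57, 0.62 to 2.58) in aged and 3.85-fold (1.94, 0.96 to 3.05) in young mice.

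Wdfy1, the most abundant of the 5, was lower in E4 but was counted in every section. It had 776 UMIs in E4 5xFAD, 232 in E4 aged and 358 in E4 young, against 1061, 1099 and 1269 in E3 5xFAD, E3 aged and E3 young. The E3 levels of 35.8, 35.2 and 34.1 CPM lay within 1.05-fold of each other. E4 aged and E4 young stood at 11.4 (9.98 to 12.97) and 9.91 CPM (8.91 to 10.99), while E4 5xFAD stood at 24.2 CPM (22.5 to 26.0), between the other E4 sections and the E3 sections and outside the intervals of both. E4 over E3 was accordingly -0.57 on the log2 scale in 5xFAD (-0.70 to -0.43), -1.62 in aged (-1.84 to -1.42) and -1.78 in young mice (-1.95 to -1.61). A UMI was present in 22.9% of spots in E4 5xFAD, 11.8% in E4 aged and 13.6% in E4 young, against 27.8%, 33.0% and 35.0% in E3 5xFAD, E3 aged and E3 young. Mrpl44, a mitochondrial ribosomal protein gene on the opposite strand that overlaps Wdfy1, had log2 ratios of 0.21, -0.04 and -0.02. The sources used here do not state whether counting used strand.

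**Figure D1:**
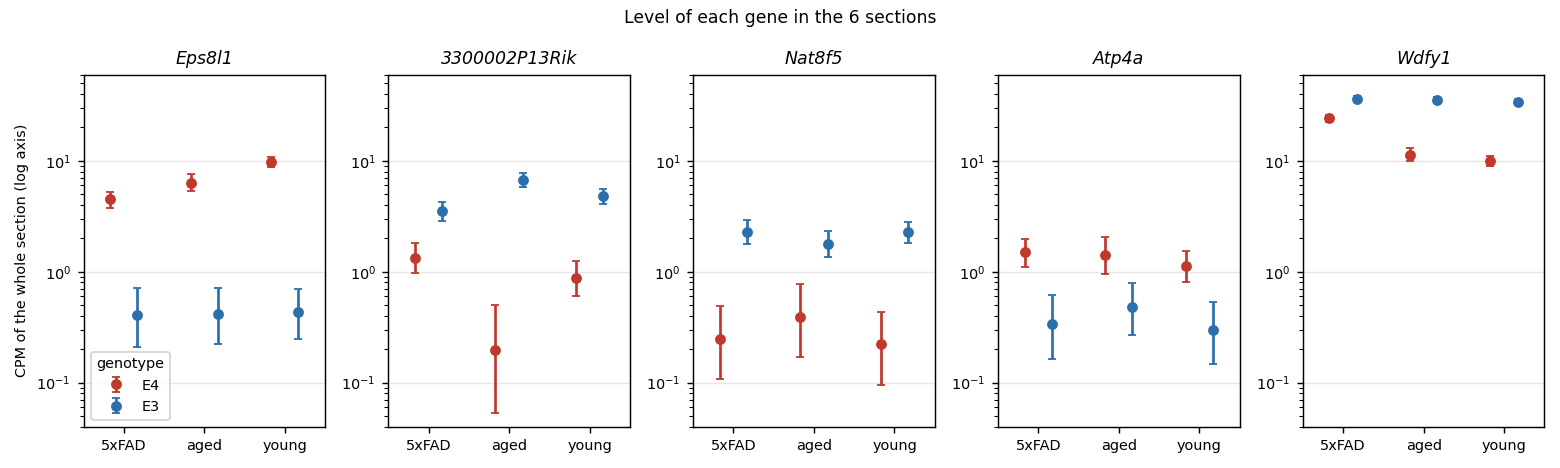
Level of each gene in CPM (log axis) in the 6 sections, with E4 left of E3 in each condition; points are single sections and bars are exact 95% Poisson intervals. E4 lay above E3 for Eps8l1 and Atp4a and below E3 for the other 3 genes, and Wdfy1 in E4 5xFAD (24.2 CPM) lay between the other E4 sections and E3.

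Among all 17835 genes, 44 (0.247%) were at least 2-fold apart between E4 and E3 in the same direction in all 3 conditions, 27 of them higher in E4 (0.151%) and 17 higher in E3 (0.0953%). Of the 5 genes, 4 were among these 44, and Wdfy1 was not, because its 5xFAD ratio was 1.48-fold. All 5 had 1 direction in the 3 conditions, as had 27.3% of all genes, and the 3 E4 sections did not overlap the 3 E3 sections for any of the 5, against 10.1% of all genes without overlap. These counts follow from the way the genes were picked. Ordered by the smallest of the 3 absolute log2 ratios, Eps8l1 ranked 4, Nat8f5 7, Atp4a 13, 3300002P13Rik 21 and Wdfy1 191. The medians of all genes were 0.05, 0.02 and -0.00083 on the log2 scale in the 5xFAD, aged and young pairs, so that a shift of the whole section was small beside the ratios above.

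The spots were placed in regions by clustering, with the 5 genes left out of the genes clustered on, and 7 areas held at least 50 spots in every section. They were the cerebral cortex, cerebral nuclei, fiber tracts, hippocampus, hypothalamus, thalamus and a cluster led by Six3, Pvalb and Gad1 that was left unnamed. With 3 conditions this gave 21 pairs of an E4 and an E3 area per gene. The cortex was small in E4 aged (188 spots, with 713 to 937 elsewhere), as was the hypothalamus in E4 5xFAD (106 spots), and the fiber tract spots had a median of only 527.5 UMIs.

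Eps8l1 was higher in E4 in 20 of the 20 pairs with a UMI, and in 15 of them the interval of the ratio excluded 0. It was spread over the grey matter of E4, at 4.21 CPM in the 5xFAD, 9.36 CPM in the aged and 14.3 CPM in the young hippocampus, against 0.478, 0 and 0.467 CPM in E3. In the cortex it stood at 3.91, 7.65 and 7.63 CPM in E4 5xFAD, E4 aged and E4 young, against 0.307, 0.543 and 0.419 CPM in E3. The hypothalamus of E4 young had 15.6 CPM, its highest level in any area, against 0.565 CPM in E3 young. The E4 and E3 levels overlapped only in the fiber tracts, where 2 UMIs were counted in all E4 sections and 0 in E3.

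3300002P13Rik was mainly a hippocampal transcript. Its E3 level in the hippocampus was 13.9 CPM in 5xFAD, 24.4 CPM in aged and 26.9 CPM in young mice, while its E3 cortex held 3.23, 2.95 and 3.00 CPM. In E4 the hippocampus held 4.57, 0.302 and 2.99 CPM in the same order of conditions, from 26, 1 and 19 UMIs against 29, 140 and 115 UMIs in E3. The E4 cortex held 0.893, 0.510 and 0.647 CPM. It was lower in E4 in 16 of 17 pairs with a UMI, 10 of them with an interval that excluded 0. The exception was the young hypothalamus, with 3 UMIs in E4 and 2 in E3. Spots of the hippocampus numbered 201 to 339 in E4 sections and 256 to 331 in E3 sections.

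Nat8f5 was lower in E4 in 20 of 21 pairs, 10 with an interval that excluded 0. It was not bound to 1 area in E3, where it stood at 1.16 to 2.30 CPM in the cortex, 2.26 to 2.73 CPM in the hypothalamus and 1.83 to 3.21 CPM in the thalamus. The E4 sections held 0 to 0.137 CPM, 0 to 0.229 CPM and 0.199 to 0.740 CPM in these areas. In the E4 aged cortex it had 0 UMIs, where a count of 0 allows up to 0.765 CPM by the limit of 3 UMIs and 0.940 CPM by the exact interval. The E3 aged level there was 1.16 CPM (0.651 to 1.92), so the intervals of these levels overlapped. The interval of their log2 ratio excluded 0, with its upper end at -0.126.

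In E4, Atp4a was mainly counted in the cortex, at 1.99 CPM in E4 5xFAD, 3.06 CPM in E4 aged and 1.62 CPM in E4 young, against 0.230, 0.776 and 0.279 CPM in E3. These were 66 of its 118 E4 UMIs and 17 of its 36 E3 UMIs. The cortex also held much of the depth, such as 13020037 of the 29628529 UMIs of E3 5xFAD. A cortical pattern was not clear in E3. The hypothalamus of E3 5xFAD (0.854 CPM, 5 UMIs) and the hippocampus of E3 young (0.934 CPM, 4 UMIs) lay above the cortex of their sections. In E3 aged the cortex was highest. It was higher in E4 in 15 of 18 pairs with a UMI and the interval excluded 0 in 4 of them, all 3 of the cortex among them. Outside the cortex no area had more than 9 UMIs in an E4 section, so differences there were mostly not detectable at this depth.

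Wdfy1 was lower in E4 in all 21 pairs, and 17 intervals excluded 0. In the aged fiber tracts it had 0 UMIs in E4, against 11 in E3. The E3 level was 25.3 to 30.6 CPM in the hippocampus, 29.7 to 33.5 CPM in the cortex, 36.8 to 38.5 CPM in the thalamus and 40.8 to 47.0 CPM in the hypothalamus. E4 aged and E4 young stood at 8.45 and 11.02 CPM in the hippocampus, 11.5 and 9.38 CPM in the cortex, 12.2 and 7.87 CPM in the thalamus and 14.2 and 13.3 CPM in the hypothalamus. The middle position of E4 5xFAD recurred in these areas, at 20.4, 22.4, 30.1 and 29.8 CPM. In the unnamed cluster E4 5xFAD stood at 39.0 CPM, above the 29.3 CPM of E3 young, so the E4 and E3 levels overlapped there. No pair of any of the 5 genes had an interval wholly on the side opposite to its whole-section direction.

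**Figure D2:**
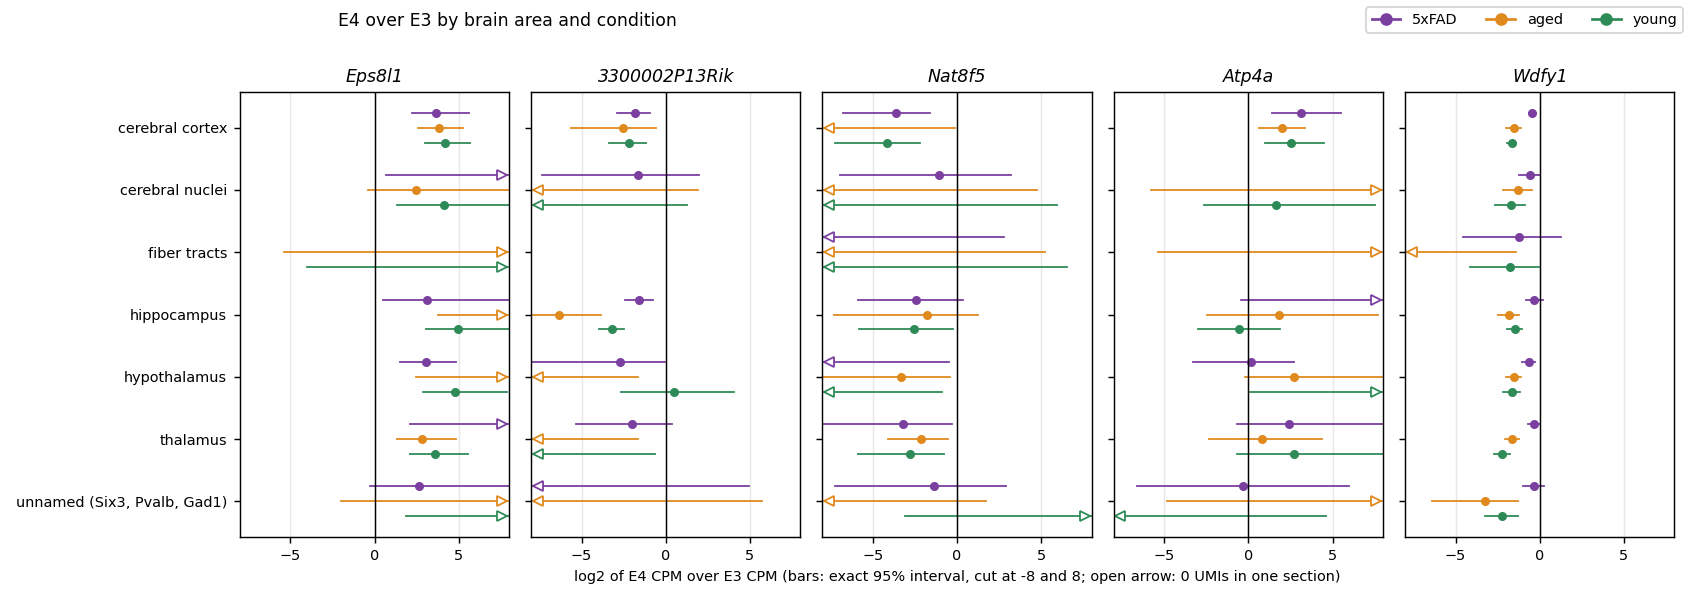
Log2 ratio of E4 CPM over E3 CPM for each gene by area (rows) and condition (colours), with exact 95% intervals cut at -8 and 8 and open arrows where 1 section had 0 UMIs; pairs with 0 UMIs on both sides are not drawn. Eps8l1 lay right of 0 in 20 of 20 pairs and Wdfy1 left of 0 in 21 of 21, with the 5xFAD pairs of Wdfy1 nearest to 0.

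**Figure D3:**
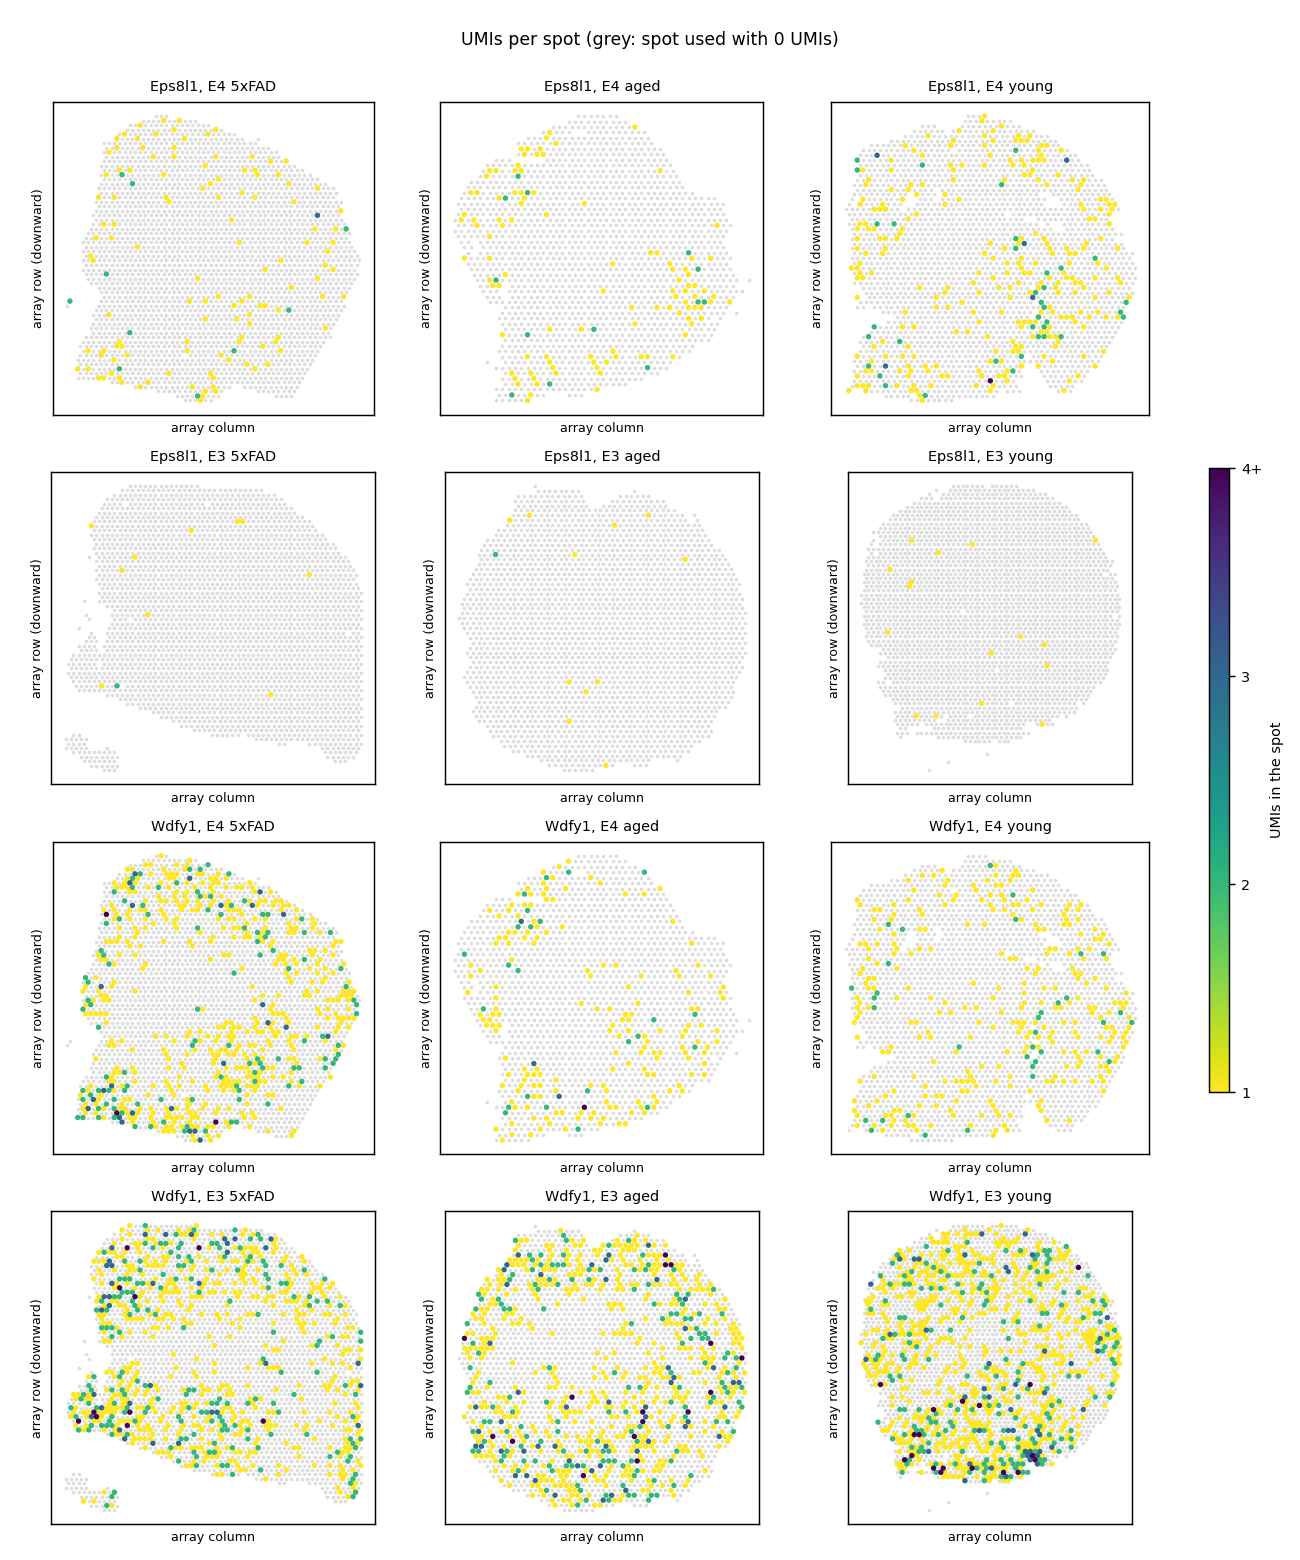
UMIs of Eps8l1 (upper 6 panels) and Wdfy1 (lower 6 panels) in each spot used, placed by array column and row, with E4 sections above the E3 section of the same condition; grey spots had 0 UMIs. Eps8l1 was found in 132, 116 and 305 spots of E4 5xFAD, E4 aged and E4 young, against 11, 12 and 16 spots in E3, and Wdfy1 in 608, 199 and 323 spots of E4, against 770, 781 and 934 spots in E3.

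The position of the genes was set against the replaced locus. 3300002P13Rik and Eps8l1 lie 16.3 and 15.2 Mb from Apoe on one side and Atp4a 11.01 Mb from it on the other. Of the 454 genes measured within 20 Mb of Apoe, 9 (1.98%) were at least 2-fold apart in 1 direction in all 3 conditions, 6 higher in E4 and 3 higher in E3. On the other autosomes these were 30 of 15863 genes (0.189%), and on the rest of chromosome 7 they were 2 of 919. Without Eps8l1, 3300002P13Rik and Atp4a, 6 genes remained within 20 Mb. The 9 genes lay between 10 and 20 Mb from Apoe, where they were 9 of 188 genes measured (4.79%), and none of the 266 genes within 10 Mb was among them. The E4 and E3 sections did not overlap for 20.7% of genes in that stretch, for 10.5% of those within 10 Mb and for 10.0% of those on other autosomes. The distances were set with the positions of Eps8l1, 3300002P13Rik and Atp4a known. None of 10 genes around Apoe listed for comparison, such as Apoc1, Tomm40 and Bcam, was 2-fold apart or non-overlapping among the 8 that passed 20 UMIs.

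The other 6 genes near Apoe were Gm15510, Ptprh, Oscar, Pirb, Arhgap33os and Gm12758. Gm15510, an antisense transcript 14.6 Mb from Apoe, ranked 1 by the smallest of its 3 absolute ratios, with log2 values of 5.59, 5.98 and 5.00 in 5xFAD, aged and young. Ptprh, a receptor tyrosine phosphatase gene 15.1 Mb from Apoe, had log2 ratios of 3.28, 3.43 and 4.37 over 52 UMIs in all. Oscar, a receptor gene of osteoclasts and myeloid cells, had 3.67, 3.89 and 1.94, and Pirb, an inhibitory receptor gene of myeloid cells, had -2.04, -2.31 and -1.44. Arhgap33os, 10.8 Mb from Apoe on the side of Atp4a, had 3.11, 6.14 and 5.85, and Gm12758 on the same side had -1.31, -2.24 and -1.96. Genes higher in E4 and genes lower in E4 thus lay in the same stretch.

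**Figure D4:**
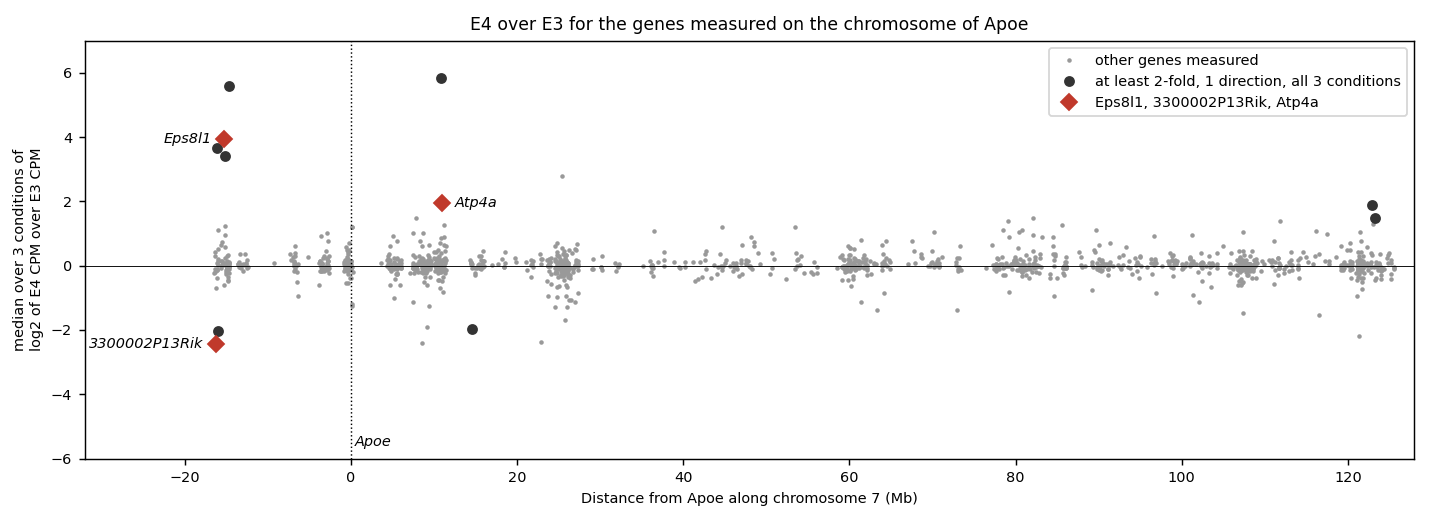
Median over the 3 conditions of the log2 ratio of E4 CPM over E3 CPM for every gene measured on chromosome 7, by distance from Apoe in Mb, with diamonds for Eps8l1, 3300002P13Rik and Atp4a and filled circles for the other genes at least 2-fold apart in all 3 conditions. Of these genes 9 lie 10 to 20 Mb from Apoe and 2 lie elsewhere on the chromosome.

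The genes next to each of the 5 in the annotation mostly did not follow them, as their log2 ratios of E4 over E3 in the 5xFAD, aged and young pairs show. Ppp1r12c, 1.03 kb from Eps8l1, had 0.22, -0.02 and 0.08, and Rdh13, a retinol dehydrogenase gene on its other side, was lower in E4 at -0.60, -0.52 and -0.69. Cacng6, a calcium channel gamma subunit gene 0.75 kb from 3300002P13Rik, had -0.30, -1.38 and -0.69, in the direction of its neighbour. Cacng8, a related gene 6.02 kb away on the other side, was higher in E4 at 0.35, 1.12 and 0.43. The E4 and E3 sections did not overlap for Rdh13, Cacng6 or Cacng8. Beside Atp4a, Tmem147 had -0.06, 0.02 and -0.01, and Haus5 had -0.78, 0.40 and -0.47. Beside Wdfy1, Serpine2 was higher in E4 at 0.18, 0.38 and 0.09 without overlap, and Ap1s3 had 0.66, -0.40 and -0.31. Nat8, 9.42 kb from Nat8f5, had -0.68, -0.20 and -0.47, in the direction of its neighbour but with overlap of the E4 and E3 sections. Nat8f3, with 39 UMIs in all, had -2.34, -1.38 and 1.04. It stood at 0.0935 to 0.221 CPM in E4 sections and 0.107 to 0.473 CPM in E3 sections.

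Relatives of the 5 genes were counted in the same way, from lists of families. In the Eps8 family 3 of 4 genes passed 20 UMIs, and Eps8l1 was the only one 2-fold apart in all conditions, while Eps8, the founding actin regulator of the family, had log2 ratios of 0.05, 0.41 and -0.28. In the Nat8 family 8 of 10 passed and Nat8f5 alone was 2-fold apart in all conditions. The medians of these 8, Nat8f5 among them, were lower in E4 at -0.54, -0.28 and -0.28. Nat8f6, with 20 UMIs in all, had -0.70, -2.38 and -0.76, and Nat8f1 had -0.30, -0.06 and -0.03. Nat8 was also lower in E4 in every condition. The rest were mixed, as Nat8f2 in aged, Nat8f3 and Nat8f4 in young and Nat8l in 5xFAD were higher in E4. Of 10 Na,K and H,K ATPase genes 7 passed and Atp4a alone was 2-fold apart. Atp4b, the partner subunit that the gastric pump needs at the membrane, had 0 UMIs in all 6 sections. All 7 genes of the Wdfy family and TLR3 adaptors passed, none was 2-fold apart in all conditions and only Wdfy1 did not overlap. Tlr3, the receptor itself, had 0.14, 0.16 and -0.28, and Wdfy2 had 0.09, -0.04 and 0.10.

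The genes most like each of the 5 across the 42 sums of 6 sections and 7 areas were found by Pearson's r of log2(CPM + 1) among 14204 genes with at least 200 UMIs. These points share libraries and depth, so r is a description. They also pool E4 and E3 sections, so the E4 against E3 difference that the 5 genes were picked on is part of each r. Cacng6 was most like 3300002P13Rik (r = 0.81), followed by Camta2 and Jph3. Tsen34, 16.0 Mb from Apoe, was most like Eps8l1 (0.76), followed by Snrpd1 and Cirbp, and had E4 over E3 log2 ratios of 0.53, 0.57 and 0.41. Tmc4, also 16.0 Mb from Apoe, was most like Atp4a (0.64), followed by Ddx56 and Birc5, with ratios of 0.69, 1.303 and 1.11. Gm47283, annotated on the Y chromosome although the labels give female mice, was most like both Nat8f5 (0.77) and Wdfy1 (0.75), with ratios of -5.02, -5.93 and -4.27. Vsig10 and C8g came next for Nat8f5, and Amd2 and Tti1 for Wdfy1. Among the 5, Nat8f5 and Wdfy1 had r = 0.61, Eps8l1 and Atp4a 0.57, and Eps8l1 and Nat8f5 -0.67. These signs follow the directions that the genes were picked on, and r within a genotype was not computed.

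Age and the 5xFAD condition were not the contrast that the genes were picked on. A difference that went the same way throughout was part of the choice, though, so these fits are not fully independent of it. Age and 5xFAD were tested with edgeR's quasi-likelihood fit over the 6 sections, with genotype and condition as additive terms. The fit had 2 residual degrees of freedom and Benjamini-Hochberg adjustment over all genes tested. All 5 genes passed the filter on low counts and were tested in the whole section and the cerebral cortex. Eps8l1 and Wdfy1 were also tested in the hippocampus, hypothalamus and thalamus, as were 3300002P13Rik in the hippocampus and hypothalamus and Nat8f5 in the thalamus. Wdfy1 alone was tested in the cerebral nuclei and the unnamed cluster, and none of the 5 in the fiber tracts. Where they were tested, none passed an adjusted p of 0.05 for aged against young or for 5xFAD against young. In the whole section 144 of 16479 genes (0.874%) were called for 5xFAD against young, 124 of them higher in 5xFAD. For aged against young edgeR called 0 of 16479 genes (0%), with 715 at an unadjusted p under 0.05, and DESeq2 called 42. Of all genes tested in an area, the share called for aged against young was 0.0335% in the cerebral cortex, 0.141% in the cerebral nuclei, 0.0397% in the fiber tracts, 0.378% in the hippocampus, 0.154% in the hypothalamus, 0.163% in the thalamus and 0.0769% in the unnamed cluster. For 5xFAD against young it was 0.971% in the cerebral cortex, 1.1% in the cerebral nuclei, 0.417% in the fiber tracts, 1.22% in the hippocampus, 0.247% in the hypothalamus, 1.98% in the thalamus and 1.43% in the unnamed cluster. Of the 41 genes on the family and neighbour lists, 31 were tested in the whole section and none was called in either comparison.

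Among the fits run, the log2 fold changes farthest from 0 were those of Eps8l1 and Wdfy1, and neither passed the threshold. Eps8l1 averaged lower in 5xFAD than in young mice in the whole section, with a log2 fold change of -0.91 ± 0.29 (SE, edgeR adjusted p = 0.329). In the hippocampus this was -1.76 ± 0.42 (adjusted p = 0.0639), and in the cortex -0.997 ± 0.31 (adjusted p = 0.306). In the hippocampus the E3 sections held 0 to 2 UMIs of Eps8l1. In the whole section Eps8l1 stood at 4.49 CPM in E4 5xFAD, against 9.80 CPM in E4 young. In E3 it stood at 0.405 CPM in 5xFAD, against 0.429 CPM in young, so the lower mean came from E4. Its fold change was -0.31 without E4 5xFAD and -0.32 without E4 young, against -1.14 without E3 5xFAD and -1.16 without E3 young. Aged against young gave -0.47 ± 0.28 for Eps8l1 in the whole section (adjusted p = 0.999) and -1.34 ± 0.48 in the hypothalamus (adjusted p = 0.722). Wdfy1 gave 0.61 ± 0.27 for 5xFAD against young in the whole section (adjusted p = 0.476) and 1.40 ± 0.36 in the cluster led by Six3, Pvalb and Gad1 (adjusted p = 0.0555). In the whole section its values were 24.2 CPM in E4 5xFAD, against 9.91 CPM in E4 young, and 35.8 CPM in E3 5xFAD, against 34.1 CPM in E3 young. Whether the 5xFAD difference of Eps8l1 or Wdfy1 depends on genotype was not tested, since 1 section per group leaves no spread within a group.

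For 3300002P13Rik the log2 fold changes over both genotypes were -0.02 ± 0.61 in aged and 0.01 ± 0.60 in 5xFAD against young (adjusted p = 0.999 and 0.998, edgeR). These near-zero means joined opposite moves, since the aged level was 0.197 CPM in E4, against 0.886 CPM in E4 young, and 6.72 CPM in E3, against 4.78 CPM in E3 young. Atp4a gave 0.47 ± 0.35 in aged and 0.25 ± 0.34 in 5xFAD against young, and in the aged cortex 1.11 ± 0.46 (edgeR adjusted p = 0.958). Nat8f5 gave -0.02 ± 0.39 in aged and -0.005 ± 0.37 in 5xFAD against young in the whole section and -1.03 ± 0.50 in the aged cortex (edgeR adjusted p = 0.958). The sections differed in markers of regions and of some other cell types, too. Ventricular system markers summed to 5468 CPM in E4 5xFAD and 1178 CPM in E3 5xFAD. They summed to 7969 and 1048 CPM in E4 aged and E3 aged, and to 700 and 5418 CPM in E4 young and E3 young. Hypothalamus markers summed to 498 CPM in E4 5xFAD and 2512 CPM in E3 5xFAD. The 5 microglial markers summed to 615 and 555 CPM in E4 5xFAD and E3 5xFAD, 297 and 297 CPM in E4 aged and E3 aged, and 232 and 272 CPM in E4 young and E3 young. The 4 hemoglobin genes summed to 15.3 and 31.7 CPM in E4 5xFAD and E3 5xFAD, 288 and 362 CPM in E4 aged and E3 aged, and 89.9 and 65.4 CPM in E4 young and E3 young. Their part in the levels of the 5 genes was not tested.

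**Figure D5:**
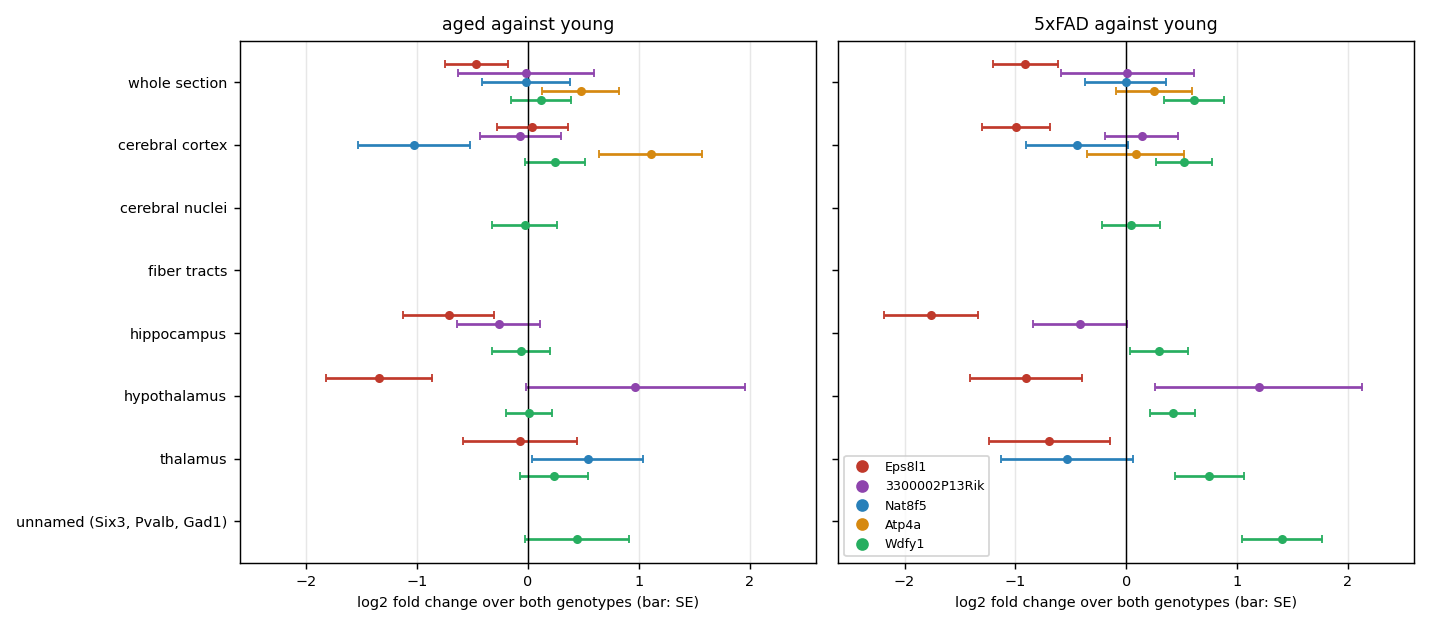
Log2 fold change over both genotypes with its SE for aged against young (left panel) and 5xFAD against young (right panel), by area, for each gene that passed the count filter there. None of the genes drawn passed an adjusted p of 0.05, and the values farthest from 0 were those of Eps8l1 in the hippocampus (-1.76) and Wdfy1 in the unnamed cluster (1.40), both in 5xFAD.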

How the data were processed

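RNA was measured in 6 mouse brain sections on Visium slides. The authors deposited raw counts, that is, UMIs of each gene at each barcode, with no normalization. The submitters' processing notes name Space Ranger 1.3.0, STAR 2.5.1b, mm10 and GRCh38. In the file headers E3 5xFAD has version 2.0.0 and every other section 1.2.2, and what that difference does to the counts was not tested. Spots under the deposited tissue mask with a barcode in the matrix were used (14524 of 16979 in the masks). The share used was 99.9% in E3 5xFAD, 81.3% in E4 5xFAD and 75.9% to 86.0% in the aged and young sections. What this imbalance does to the 5xFAD pair was not tested. It is unknown whether 1 run made both. Barcodes are positions of the array, so sections share them (2735 of 3382 barcodes were used in at least 2 sections). Human rows were left out, except those of genes that the mice carry, such as APOE and APP.

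The 5 genes, the gene lists and the tests were chosen with earlier results of these data known. Groups came from the labels, with 1 section each, so no test compares 2 sections. UMIs were summed per section and area. Ratios have exact conditional binomial (Clopper-Pearson) 95% intervals, and genes at 0 took 0.5 UMI in ratios over all genes. Louvain clustering of the spots used a resolution of 0.8 (igraph 0.11.9) on 3000 variable genes and 20 principal components, with each gene centred within its section, and each cluster took the region with the highest marker score. The cluster led by Six3, Pvalb and Gad1 was left unnamed by a rule made after the clusters were seen. Age and 5xFAD were tested with edgeR 4.0.16 (TMM, filterByExpr) in R 4.3.3 at an adjusted p of 0.05, on a script tested on simulated data. The SE is the fold change divided by the square root of F. DESeq2 1.42.0, other scalings, filters and sets of spots, and leaving out each section were alternatives. Genes were placed by Ensembl ID (17829 of 17835). Named besides the 5 were the 3 genes most like each, their nearest measured neighbours, and any listed gene that was 2-fold apart in all conditions or called. Other genes, those near Apoe and family members among them, were named after their values were seen.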

Additional observations from a re-analysis of the deposited data

Results flagged for a closer look

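Counts at barcodes outside the tissue mask, which no comparison above used, exceeded the 3 UMIs that a count of 0 allows for 4 of the 5 genes. These barcodes held 3913453 UMIs in the E4 sections and 1910987 in the E3 sections. Eps8l1 had 48 UMIs there, 42 in E4 (10.7 CPM) and 6 in E3 (3.14 CPM). 3300002P13Rik had 19, with 2 in E4 (0.511 CPM) and 17 in E3 (8.90 CPM). Nat8f5 had 7, with 2 in E4 (0.511 CPM) and 5 in E3 (2.62 CPM). Wdfy1 had 159, with 87 in E4 (22.2 CPM) and 72 in E3 (37.7 CPM). In these sums the direction of E4 against E3 outside the mask was that of the spots used for each of these 4 genes. The sums do not weigh the conditions alike, since E4 5xFAD had 672 such barcodes and E3 5xFAD only 6. Of the Wdfy1 UMIs in E4, 54 came from E4 5xFAD. All 5 Nat8f5 UMIs of E3 came from E3 young, and in the aged pair Nat8f5 had 1 UMI in E4 and 0 in E3. Atp4a had 3 UMIs there in E4 and 0 in E3.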

How the results depend on the processing

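No paired analysis was possible because the labels give no replicate numbers and each group has 1 section. Under 5 alternatives the E4 over E3 log2 ratios of the 5 genes gave 75 values. Of these 70 stayed within the counting interval of the ratio reported, 5 lay outside it in the same direction and 0 reversed. With regions matched (equal numbers of spots of a region in all sections), which keeps fewer UMIs, the ratio was 5.91 for Eps8l1 in 5xFAD, -5.46 for Nat8f5 in young, and 4.22 in 5xFAD and 2.72 in aged for Atp4a. With the mean over spots of the share of UMIs it was -2.13 for Wdfy1 in aged, and the cause was not tested. The 44 genes at least 2-fold apart in all conditions became 90 with the mean of shares (30 shared), 6 with at least 200 UMIs and 179 with a 1.5-fold threshold. With matched regions there were 45 genes, of which 17 were among the 44, and 4 of the 5 genes were counted under each alternative but the 200 UMI minimum, where Atp4a fell below it. Without section centring 92.1% of spots kept their region, and the pairs with an interval past 0 numbered 16 for Eps8l1, 10 for 3300002P13Rik, 10 for Nat8f5, 4 for Atp4a and 18 for Wdfy1.

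Genes called for aged against young numbered 0 with edgeR, 42 with DESeq2, 21 with no filter on low counts, 19 with matched regions and 3 to 47 with each section left out (4 without E4 5xFAD, 3 without E3 5xFAD, 21 without E4 aged, 25 without E3 aged, 14 without E4 young and 47 without E3 young). For 5xFAD against young they numbered 144 with edgeR, 259 with DESeq2, 280 with no filter, 261 with matched regions and 24 to 238 with each section left out (24 without E4 5xFAD, 34 without E3 5xFAD, 238 without E4 aged, 219 without E3 aged, 79 without E4 young and 200 without E3 young). Where this left 1 section of a condition, its spread was taken from the others. Across 100 fits of the 5 genes under these alternatives none was called, the lowest adjusted p being 0.0792 for Wdfy1 in 5xFAD, and 20 had a sign other than the fit reported. Depth limits the values of Atp4a and Nat8f5, which had 154 and 233 UMIs in all.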
